A study of Homo sapiens with 8 samples.

Results

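The genes described here are the RAB GTPase genes, taken as every autosomal protein-coding gene of the GENCODE annotation of hg19 whose symbol is RAB followed by a number and, in some, a letter. This rule gave 56 genes among 19229 autosomal protein-coding genes. It used gene names only and none of the measured intervals, but the gene list was chosen with earlier results of these data known.

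The data are maps of G-quadruplexes (G4s), DNA structures in which runs of guanine stack into a folded 4-stranded form. They were recovered from formaldehyde-fixed chromatin with the G4-specific antibody BG4 and sequenced (G4 ChIP-seq) in 2 human cell lines grown without any treatment: K562, from a chronic myelogenous leukemia, and HepG2, from a hepatocellular carcinoma. The labels give 3 G4 ChIP libraries and 1 input library for each line, and the design text of the series calls the replicates technical, while the study's supplement describes independent experiments with technical replicates in each. The deposited result is 4 lists of intervals merged over replicates, 2 for each line. A high-confidence peak is a stretch found in at least 5 of 8 K562 replicates or 6 of 9 HepG2 replicates, and the lower-confidence list of each line keeps stretches found in at least 2 replicates. Each line is 1 cell line with no second line of its tissue, and the intervals carry no signal value, so no spread between replicates and no depth can be given. Differences between K562 and HepG2 at a gene are therefore described without a test, and the lists differ in how many replicates they demand.

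Rab proteins are small GTPases that mark membranes. In the GTP-bound form they recruit effectors (tethers, motors, lipid kinases) that move, dock and fuse vesicles. Guanine nucleotide exchange factors (GEFs) load them, GTPase-activating proteins (GAPs) switch them off, and prenylation enzymes and extraction factors put them on membranes and remove them. Each Rab is known for its own compartment, such as RAB5 proteins on early endosomes, RAB7A on late endosomes and RAB1 proteins between the endoplasmic reticulum (ER) and the Golgi.

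The promoters with the most G4-forming sequence under a high-confidence peak were those of RAB43, a Golgi Rab, RAB10, which works in exocytosis and GLUT4 traffic, and RAB40C, a Rab with a SOCS box that recruits a ubiquitin ligase. They are printed first as the motif-richest examples and are not typical, since most RAB peaks held no such motif (counts are given with the peak features). A G4 motif is here 4 runs of at least 3 G joined by loops of 1 to 7 bases, searched on both strands without overlaps within a strand. A loop base may itself be G, so an unbroken stretch of G can count as separate runs, as in RAB10 motif b. The sequences are from hg19, read 5′ to 3′ on the strand that holds the guanines, with the G runs in capitals. The HepG2 peak of RAB43 held 5 motifs on the coding strand of this minus-strand gene, at chr3:128840672-128840696, chr3:128840729-128840754, chr3:128840896-128840920, chr3:128841058-128841085 and chr3:128841117-128841143. The first 3 of them also lay under the K562 peak.
RAB43 motif a: GGGcggagccGGGGGcGGGcGGGGG
RAB43 motif b: GGGtcGGGctgaggtGGGcccgaGGG
RAB43 motif c: GGGctgaGGGcggagtcGGGGcGGG
RAB43 motif d: GGGcggagtcGGGGcGGGctgaggtGGG
RAB43 motif e: GGGGtcGGGGctgaGGGcggagtcGGG

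The K562 peak of RAB10 held 4 motifs, of which 3 were on the coding strand of this plus-strand gene (chr2:26256627-26256652, chr2:26256657-26256680 and chr2:26256916-26256935) and the remaining one, motif c, on the template strand (chr2:26256781-26256806). The HepG2 peak held motifs c and d.
RAB10 motif a: GGGtgtcccGGGGagcGGGGagcGGG
RAB10 motif b: GGGaggcGGGGGtcggaGGGgGGG
RAB10 motif c: GGGGagaaGGGaGGGGcgagaaaGGG
RAB10 motif d: GGGcgtgaGGGaaGGGcGGG

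The widest of the RAB40C peaks in K562 held 3 motifs on its coding plus strand, at chr16:639994-640012, chr16:640016-640033 and chr16:640128-640146. The first 2 lay upstream of the transcription start site (TSS) outside annotated exons, and the last overlapped an exon.
RAB40C motif a: GGGcGGGtGGGccaatGGG
RAB40C motif b: GGGaGGGcGGGcgaaGGG
RAB40C motif c: GGGcgcGGGcGGGGcGGGG

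RAB genes carried high-confidence G4 peaks at their promoters more often than protein-coding genes as a whole, in both lines. A promoter was scored as positive when an interval overlapped, by at least 1 bp, the 1 kb on either side of any annotated TSS of the gene. In K562, 37 of the 56 RAB genes were positive (66.1%, 95% Wilson interval 53.0 to 77.1), beside 36.7% of the 19229 genes. In HepG2, 33 were positive (58.9%, 45.9 to 70.8), beside 32.0% of all genes. The intervals cover counting error over genes only.

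A high-confidence peak in both lines was seen at 28 RAB genes (50%, 37.3 to 62.7), beside 25.3% of all genes, and in at least 1 line at 42 (75.0%, 62.3 to 84.5), beside 43.4%. The lower-confidence lists reached 41 RAB genes in K562 and 41 in HepG2 (73.2% each), beside 51.3% and 52.9% of all genes. No interval of any list was found at 9 RAB genes (16.1%, 8.69 to 27.8), beside 39.6% of all genes. These shares are descriptions of a gene list and were not tested against the background.

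RAB genes also had CpG-island-like promoters more often than genes in general, and their shares lay above the background among such promoters too. CpG-island-like promoters, with a GC content of at least 55% and an observed over expected CpG ratio of at least 0.65 within 500 bp of 1 TSS per gene, made up 42 of the 56 RAB genes (75.0%) and 56.8% of all genes. Among these promoters, 33 of 42 RAB genes had a K562 high-confidence peak (78.6%, 64.1 to 88.3), beside 53.3% of the 10931 such genes. In HepG2 it was 27 of 42 (64.3%, 49.2 to 77.0), beside 45.0%. Peaks in both lines were found at 24 (57.1%, 42.2 to 70.9), beside 37.2%, and in at least 1 line at 36 (85.7%), beside 61.1%, while 2 had no interval (4.76%), beside 21.1%. This comparison was chosen after seeing the data. RAB genes had a median of 5.5 annotated TSSs and 4026 bp of scored sequence, beside 5 TSSs and 4688 bp over all genes.

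The map of calls by role shows each gene under the role of its protein, in groups of 5 to 14 genes that are given as counts only. All 10 ER and Golgi Rabs had an interval in K562 and 9 of them in HepG2. High-confidence peaks in both lines were found at 8 of them: RAB1A and RAB1B, which act in ER-to-Golgi transport, RAB2A at the ER-Golgi boundary, RAB6A in retrograde Golgi traffic, RAB18 on the ER and lipid droplets, RAB30, RAB33B and RAB43. The exceptions were RAB2B, with a high-confidence peak in HepG2 and a lower-confidence interval in K562, and RAB6B, the neuronal RAB6 form, with 1 lower-confidence interval of 234 bp in K562 alone.

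**Figure D1:**
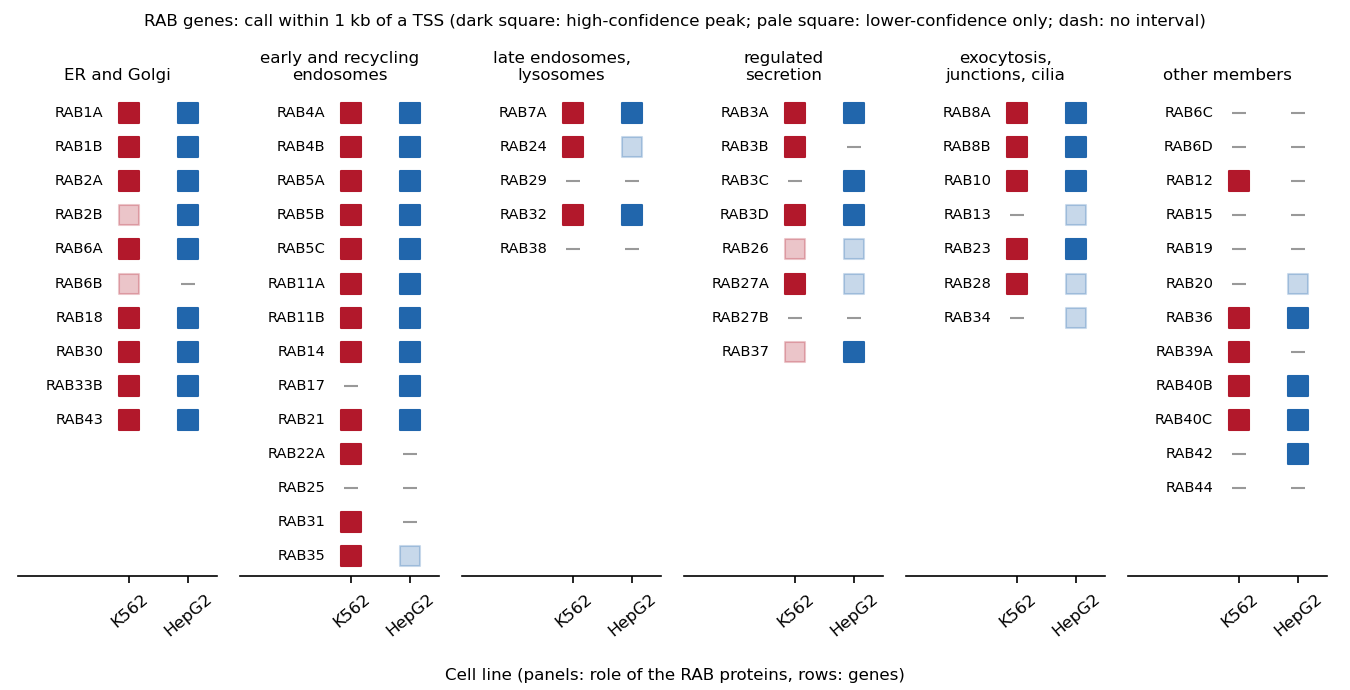
Calls at the 56 RAB genes in K562 (red, left column of each panel) and HepG2 (blue, right column), grouped by role; dark squares are high-confidence peaks within 1 kb of a TSS, pale squares lower-confidence intervals only and dashes no interval. The ER and Golgi panel has 8 of 10 genes dark in both lines, and 5 of the 9 genes with a dash in both lines are among the other members.

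Among the 14 Rabs of early and recycling endosomes, 12 had a high-confidence peak in K562, 10 in HepG2 and 9 in both. Those in both were the rapid-recycling RAB4A and RAB4B, the early endosome Rabs RAB5A, RAB5B and RAB5C, the recycling Rabs RAB11A and RAB11B, and RAB14 and RAB21. RAB25, the epithelial relative of RAB11, was the only one of the 14 with no interval in either line.

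Of the 5 Rabs of late endosomes, lysosomes, autophagy and lysosome-related organelles, RAB7A and the melanosome Rab RAB32 were high-confidence in both lines, RAB24 in K562 only, and RAB29 and RAB38 had no interval. The 7 Rabs of polarized exocytosis, junctions and cilia gave 5 in K562 and 4 in HepG2. RAB8A, RAB8B, RAB10 and RAB23, a ciliary regulator of Hedgehog signalling, were positive in both lines, and all 7 had some interval in HepG2.

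The 8 Rabs of regulated secretion, which serve secretory granules and vesicles, had high-confidence peaks at 4 in K562 and at 4 in HepG2, with RAB3A and RAB3D in both. With the lower-confidence lists, RAB26, RAB27A and RAB37 had an interval in both lines too. The 12 members placed in no role above gave 5 in K562, 4 in HepG2 and 3 in both (RAB36, RAB40B and RAB40C), and 5 of these 12 had no interval.

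Closely related copies shared their calls in 6 of the 12 paralog groups. How often unrelated RAB genes share calls was not counted, and 28 of the 56 RAB genes were high-confidence in both lines. The pairs RAB1A and RAB1B, RAB4A and RAB4B, RAB8A and RAB8B, and RAB40B and RAB40C were high-confidence throughout, as were the 3 RAB5 genes. RAB22A and RAB31, both of endosome and trans-Golgi sorting, were high-confidence in K562 and without an interval in HepG2.

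In the other groups the copies differed. In the RAB3 family of synaptic and secretory vesicles, RAB3A and RAB3D were positive in both lines, RAB3B in K562 only and RAB3C in HepG2 only. RAB6A was positive in both lines, RAB6B only at lower confidence in K562, and RAB6C, an intronless copy of RAB6A, nowhere. RAB27A, which docks secretory granules, had a K562 peak and RAB27B no interval. RAB32 was positive in both lines and RAB38, its partner in melanosome biogenesis, in neither. RAB11A and RAB11B differed from RAB25, and RAB2A from RAB2B, in the ways given above.

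The peaks sat just upstream of the TSS. The centre of the 47 K562 high-confidence peaks at RAB genes lay at a median of -53 bp from the nearest TSS of the gene (95% interval of the median -84 to -26), beside -52 bp for all 7242 peaks at protein-coding promoters. For the 41 HepG2 peaks the median was -80 bp (-107 to -19), beside -61 bp for 6000 peaks. Centres upstream of the TSS made up 85.1% of the RAB peaks in K562 and 75.6% in HepG2, beside 79.1% and 78.0%.

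Median widths were 215 bp in K562 and 218 bp in HepG2, beside 204 bp and 182 bp, and median GC contents 71.2% and 67.7%, beside 71.2% and 67.6%. Position, width and base composition of the RAB peaks were thus close to those of promoter peaks in general, and the widths are those of stretches that replicates had in common, not of single peak calls.

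**Figure D2:**
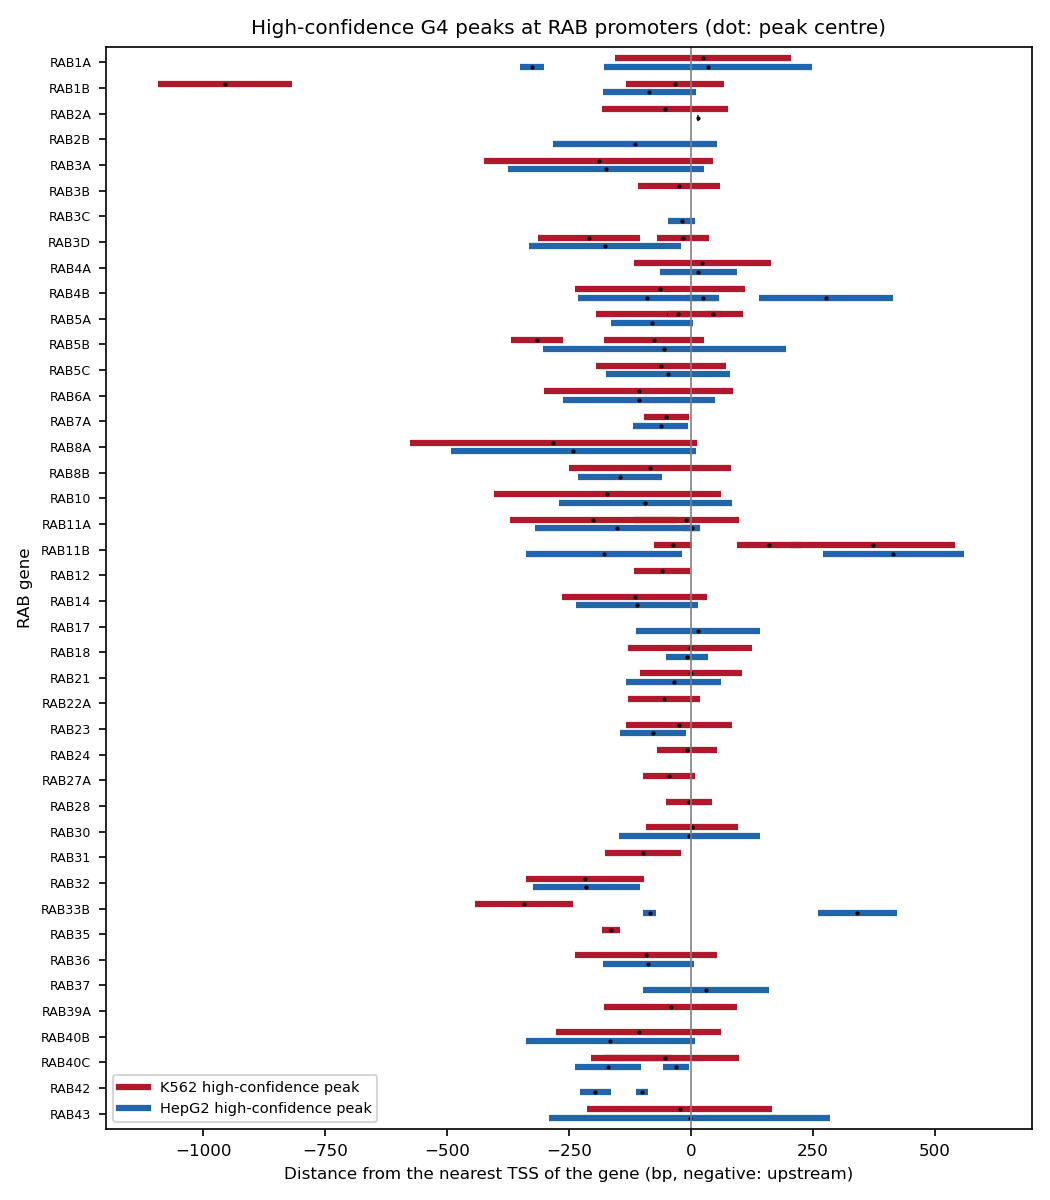
High-confidence G4 peaks of K562 (red) and HepG2 (blue) as bars along the distance from the nearest TSS of each RAB gene, in bp, for the 42 genes with a peak in at least 1 line; dots are peak centres. Most bars touch or lie just left of the TSS, and the bar farthest upstream is the K562 peak of RAB1B centred at -955 bp.

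Several RAB promoters carried more than 1 high-confidence peak. RAB5A, RAB11B and RAB40C had 3 each in K562, and RAB4B had 3 in HepG2. RAB1B, RAB3D, RAB5B and RAB11A had 2 in K562, and RAB1A, RAB11A, RAB11B, RAB33B, RAB40C and RAB42 had 2 in HepG2. Some of these peaks lay together within 1 wider lower-confidence interval of the same line. This held for RAB5A (563 bp) and RAB5B (674 bp) in K562. In HepG2 it held for RAB4B (918 bp), RAB1A, RAB33B, RAB40C and RAB42. The K562 peaks of RAB1B, RAB3D and RAB11A lay in separate such intervals, as did the HepG2 peaks of RAB11A and RAB11B. The 3 K562 peaks of RAB11B and of RAB40C lay in 2 each. How many promoters had more than 1 peak was not counted over all genes. In K562, 1 peak each of RAB1B, RAB3D, RAB5A, RAB5B and RAB11A lay nearest a TSS of another gene, at RAB5A the widest one, of 301 bp. The same held for the RAB11B peaks of 131 bp and 338 bp. Some peaks were short, such as the stretches of 32 bp and 41 bp at RAB5A in K562.

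In RAB11B these peaks ran into the gene: the K562 peaks were centred at 161, -37 and 374 bp from the nearest of its TSSs and the HepG2 peaks at -179 and 415 bp. RAB4B had HepG2 peaks at -90, 25 and 278 bp, of 283, 64 and 274 bp, where K562 had a single high-confidence peak of 349 bp at -63 bp. A K562 lower-confidence interval of 810 bp overlapped all 3 of these HepG2 peaks. For RAB11A, 1 of the peaks of each line lay at an alternative upstream TSS that is nearest to DENND4A, a gene for a Rab exchange factor on the opposite strand, and the other at the main promoter, at -9 bp in K562 and 2 bp in HepG2.

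The widest peaks in K562 were at RAB8A, an exocytosis and cilium Rab, with 588 bp (chr19:16222124-16222711), and at RAB3A, with 470 bp (chr19:18314807-18315276). In HepG2 they were at RAB43, with 577 bp (chr3:128840571-128841147), and again RAB8A, with 503 bp. The wide peaks of these genes overlapped between the lines: all of the 381 bp covered in K562 at RAB43 and all of the 503 bp covered in HepG2 at RAB8A were covered in the other line as well.

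Some calls rested on very short stretches or on a start site shared with a neighbour. The HepG2 call of RAB2A was a stretch of 3 bp inside the place of its K562 peak of 257 bp. The HepG2 lower-confidence interval there was 318 bp wide and covered the whole K562 peak. At RAB40C, 1 of the K562 stretches was 2 bp wide. The K562 call of RAB35, an endocytic recycling Rab, was 37 bp.

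Counted by which gene's TSS was nearest, the K562 peaks of RAB4A, RAB33B and RAB35 belonged to antisense genes (RAB4A-AS1, RAB33B-AS1 and RAB35-AS1). In HepG2 the same held for RAB11B and RAB33B with their antisense genes, for RAB2B with TOX4, for RAB3D with TMEM205 and for RAB5A with EFHB. The assay does not tell which of 2 such genes a G4 belongs to. A neighbour starting on the opposite strand within reach was found for 27 of 56 RAB genes (48.2%) and for 37.5% of all genes.

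A few distances mark how the 1 kb limit worked. Just inside it were the K562 peak of RAB1B at -955 bp, beside a second peak at -32 bp, and the HepG2 lower-confidence interval of RAB27A, 16 bp wide with its edge at 947 bp. Just outside it was RAB34, a ciliary Rab, whose nearest high-confidence edges were at 1138 bp in K562 and 1205 bp in HepG2.

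At each of the 28 genes positive in both lines, at least 1 K562 peak shared bases with a HepG2 peak. At RAB2A they shared only 3 bp, while the HepG2 lower-confidence interval covered all 257 bp of the K562 peak. At RAB3D the K562 peak at -16 bp overlapped no HepG2 high-confidence peak, and the shared bases lay in its other K562 peak, nearest a TSS of CCDC159. The covered length was larger in K562 in 20 and in HepG2 in 8, with medians of 323 bp and 252 bp. The shared bases were a median of 79.8% of the K562 length and 88.8% of the HepG2 length. Shared bases and covered length per gene were not computed over all genes. Over all genes positive in both lines, the median peak width was 226 bp in K562 and 198 bp in HepG2. At RAB2A, RAB3A, RAB4A, RAB5A, RAB6A, RAB8A, RAB8B, RAB14, RAB18, RAB32 and RAB36 the whole HepG2 stretch lay inside K562 peaks.

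The largest excess of HepG2 was at RAB4B, with 621 bp beside 349 bp, and a larger HepG2 length was also seen at RAB43, RAB5B and RAB1A. At RAB4B, 556 of the 621 bp lay within a K562 lower-confidence interval. The largest excess of K562 was at RAB1B, with 476 bp beside 192 bp. Of its K562 peaks, the one at -955 bp lay nearest a TSS of KLC2-AS2 and had no HepG2 counterpart. The other was 202 bp wide. Covered length is not a signal level.

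**Figure D3:**
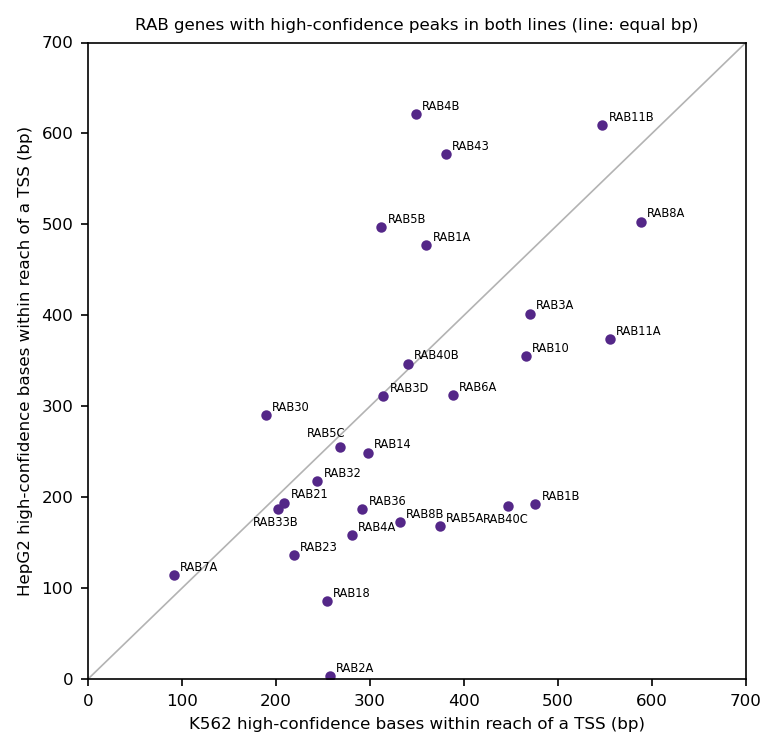
Bases covered by high-confidence peaks in K562 (x axis, bp) and HepG2 (y axis, bp) at the 28 RAB genes positive in both lines; each point is a gene and the line marks equal lengths. Below the line, with more bases in K562, are 20 genes; RAB2A, with 3 bp in HepG2, is the lowest point.

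Genes positive in 1 line shared part of their calls at lower confidence. Of the 37 RAB genes with a K562 high-confidence peak, 28 had one in HepG2 (75.7%), 4 only a lower-confidence interval and 5 none, beside 68.9%, 22.5% and 8.59% of all genes with such a peak. Of the 33 positive in HepG2, 28 had one in K562 (84.8%), 2 only a lower-confidence interval and 3 none, beside 78.9%, 13.2% and 7.92%. A K562 peak without a HepG2 high-confidence peak was thus found at 9 RAB genes (16.1%, beside 11.4% of all genes), and the reverse at 5 (8.93%, beside 6.76%).

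A K562 peak with no HepG2 interval on either list was found at 5 RAB genes (8.93%, beside 3.15% of all genes): RAB3B, RAB12, RAB22A, RAB31 and RAB39A. RAB3B works in regulated secretion, RAB12 in the turnover of transferrin receptor, RAB22A and RAB31 in early endosome sorting, and RAB39A in phagosomes and endosomes. Their peaks were 167 bp at -24 bp, 114 bp at -59 bp, 147 bp at -55 bp, 156 bp at -98 bp and 272 bp at -41 bp, in that order, and the nearest HepG2 interval of either list was 64377 bp from a TSS for RAB3B and 5340 bp for RAB31.

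The parts of these 5 peaks outside annotated exons are printed because none of them held a G4 motif as defined above. They are hg19 sequence on the strand of the gene, at chr1:52456373-52456479 (minus strand), chr18:8609320-8609433, chr20:56884643-56884770, chr18:9708097-9708252 and chr11:107799020-107799173 (all plus strand). Capitals mark the GC box GGGCGG, the core recognised by SP and KLF factors, or its complement CCGCCC, which can overlap each other and the G runs of a G4 motif. They held 3, 3, 5, 1 and 6 matches. Under looser motif definitions the 5 whole peaks were not free of motifs. All held motifs with runs of at least 2 G, and those of RAB12, RAB22A and RAB39A held 1 with loops of up to 12 bases.
RAB3B: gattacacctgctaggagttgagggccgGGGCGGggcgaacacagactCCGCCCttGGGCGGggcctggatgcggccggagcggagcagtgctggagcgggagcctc
RAB12: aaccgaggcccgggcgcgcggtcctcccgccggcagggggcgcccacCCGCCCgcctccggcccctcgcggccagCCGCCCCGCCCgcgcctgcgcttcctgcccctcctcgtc
RAB22A: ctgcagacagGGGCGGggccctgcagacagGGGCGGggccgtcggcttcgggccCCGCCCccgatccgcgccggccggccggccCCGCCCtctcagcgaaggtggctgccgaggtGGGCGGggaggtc
RAB31: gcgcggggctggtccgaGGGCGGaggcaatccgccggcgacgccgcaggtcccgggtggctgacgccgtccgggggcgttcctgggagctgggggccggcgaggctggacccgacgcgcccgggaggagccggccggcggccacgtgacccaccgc
RAB39A: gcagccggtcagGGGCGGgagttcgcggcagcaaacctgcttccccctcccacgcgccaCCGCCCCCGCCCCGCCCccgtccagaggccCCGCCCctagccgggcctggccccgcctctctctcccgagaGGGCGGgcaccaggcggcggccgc

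A HepG2 peak with no K562 interval on either list was found at 3 RAB genes (5.36%, beside 2.54% of all genes): RAB3C, RAB17 and RAB42. RAB17, which directs polarized traffic in epithelial cells, had a peak of 254 bp at 15 bp and 1131 bp of lower-confidence intervals in HepG2, and no K562 interval within 90256 bp of a TSS. RAB3C, a neuronal secretion Rab, had a peak of 57 bp at -19 bp. RAB42 had 2 short peaks, of 63 bp and 24 bp, at -196 and -100 bp. The longer of these, at chr1:28918485-28918547 on the plus strand and outside exons, is printed here and held neither a GC box nor a G4 motif. It is shorter than the K562 stretches above, so a match is less likely to fall in it. The HepG2 lower-confidence interval of 388 bp around it held a GC box, no G4 motif, and 2 motifs when loops of up to 12 bases were allowed.
RAB42: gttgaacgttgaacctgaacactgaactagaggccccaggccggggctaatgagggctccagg

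The remaining genes positive in 1 line had lower-confidence intervals in the other. RAB24, RAB28, RAB35 and RAB27A were positive in K562. At RAB24, an autophagy Rab, RAB28, a ciliary Rab, and RAB35 the HepG2 interval overlapped the K562 peak by 77, 95 and 37 bp. At RAB27A it did not, since the HepG2 interval lay at -954 bp and the K562 peak at -45 bp.

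RAB2B and RAB37 were positive in HepG2. At RAB2B the 225 bp of the K562 interval lay wholly within the HepG2 peak of 336 bp. At RAB37, a secretory granule Rab, the K562 interval of 104 bp was at another TSS than the HepG2 peak of 259 bp.

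The peaks found in 1 line differed in base composition from each other. The 9 K562 peaks of RAB genes without a HepG2 peak had a median GC content of 78.4% (range 65.1 to 85.3), and the 6 HepG2 peaks of genes without a K562 peak had 60.3% (58.7 to 70.8), so that these ranges overlapped. At genes positive in both lines the medians were 69.4% over 38 K562 peaks and 68.5% over 35 HepG2 peaks. All protein-coding genes had the same order, with 73.8% for K562 alone, 70.2% and 68.5% for genes in both and 63.4% for HepG2 alone. A GC box was in 8 of the 9 K562 peaks (88.9%) and in 1 of the 6 HepG2 peaks (16.7%), beside 72.2% and 41.3% over all genes. The peaks were also shorter than those at genes positive in both lines, with medians of 123 bp in K562 and 158.5 bp in HepG2, beside 255.5 bp and 218 bp. All protein-coding genes again had the same order, with 161 bp and 136 bp, beside 226 bp and 198 bp.

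Most RAB peaks did not hold the strict G4 motif. It was found in 15 of 47 K562 peaks (31.9%, 20.4 to 46.2), beside 35.0% of all promoter peaks, and in 11 of 41 HepG2 peaks (26.8%, 15.7 to 41.9), beside 25.0%. With runs of at least 2 G the shares were 93.6% and 85.4%, beside 91.1% and 85.8%. RAB peaks were thus near the background under both definitions.

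In K562 the motifs were on the coding strand alone in 8 peaks, on the template strand alone in 4 and on both in 3. In HepG2 it was 6, 3 and 2. The strand split was not counted over all promoter peaks, so it cannot be read as particular to RAB genes. Examples from each kind are printed in the same notation. At RAB1A both motifs were on the coding minus strand and the same in both lines, at chr2:65357458-65357481 and chr2:65357486-65357506. At RAB36 a motif was on the template strand (chr22:23487430-23487448), and at RAB23 there was one on each strand, the first coding (chr6:57087140-57087160) and the second template (chr6:57087209-57087231). RAB24 had the only motif among the 9 K562 peaks of genes without a HepG2 peak (chr5:176730706-176730730, template strand).
RAB1A motif a: GGGtGGGGaggtgaGGGagtGGGG
RAB1A motif b: GGGGaGGGGagcaGGGaGGGG
RAB36 motif: GGGtGGGcggtGGGcGGGG
RAB23 motif a: GGGGcGGGGcaGGGccgcGGG
RAB23 motif b: GGGagcccGGGaGGGcagtGGGG
RAB24 motif: GGGaGGGGGctagaGGGcgaGGGGG

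A GC box was found in 40 of the 47 K562 peaks (85.1%, 72.3 to 92.6), beside 75.5% of promoter peaks, and in 27 of the 41 HepG2 peaks (65.9%, 50.6 to 78.4), beside 64.7%. A match is only a match of letters and does not show that a factor was bound.

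The 9 RAB genes without any interval were RAB6C, RAB6D, RAB15, RAB19, RAB25, RAB27B, RAB29, RAB38 and RAB44. Within 500 bp of 1 TSS per gene their median GC content was 53.9% and their median CpG ratio 0.648, beside 65.7% and 0.792 for the 28 RAB genes positive in both lines. A G4 motif was present in 3 of the 9 windows (33.3%) and in 23 of the 28 (82.1%). Over all genes the windows without an interval had 54.5% GC, a ratio of 0.397 and a motif in 45.1%, and those positive in both lines 64.9%, 0.80 and 72.1%.

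**Figure D4:**
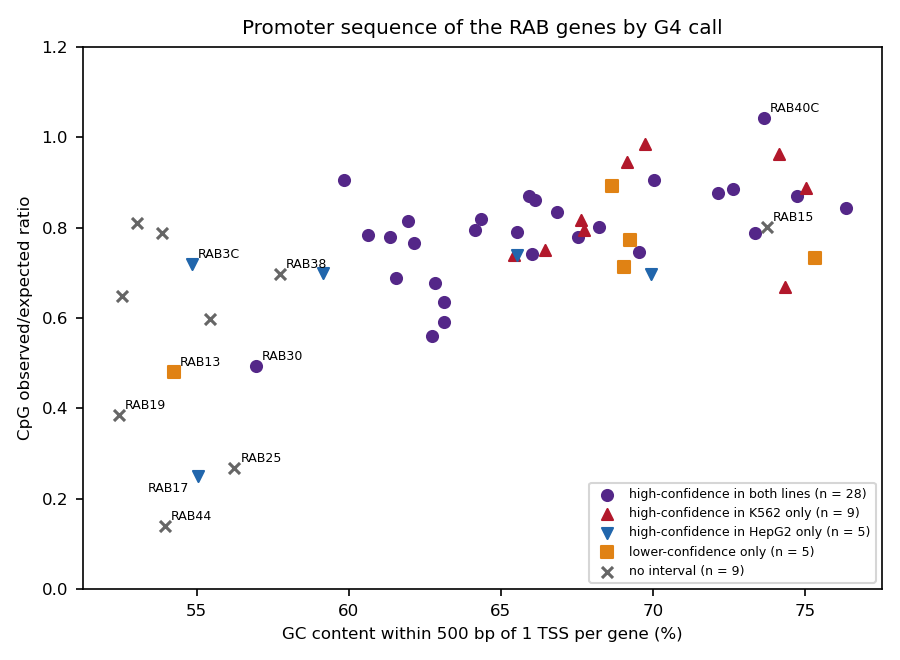
GC content (x axis, percent) and CpG observed over expected ratio (y axis) within 500 bp of 1 TSS for each of the 56 RAB genes, with symbols for the call. The genes without an interval (grey crosses) lie below 58% GC, with RAB15 at 73.7% as the exception, and most genes positive in both lines (purple circles) lie above 60%.

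RAB15, a neuronal endosome Rab, stood apart from the other 8, with a GC content of 73.7%, a CpG ratio of 0.801 and 5 motifs in its window. The nearest HepG2 high-confidence peak was 2176 bp from a TSS. Among these 9 genes the lowest CpG ratios were those of RAB44, with 0.139, RAB25, with 0.268, and RAB19, with 0.385. RAB6C and RAB6D are near-identical copies, so reads from them may not be placed uniquely and the lack of an interval there is uncertain. RAB17, with 0.251, was positive in HepG2 at a CpG-poor promoter, and RAB30, a Golgi Rab, with 0.494 and 56.9% GC, was positive in both lines.

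The other 5 genes without a high-confidence peak had lower-confidence intervals: RAB6B in K562, RAB13, RAB20 and RAB34 in HepG2, and RAB26 in both. RAB13 acts at tight junctions, RAB20 in phagosomes, RAB34 in cilia and RAB26 in secretory granules. All 5 windows held a G4 motif, with a median GC content of 69.0%. The interval of RAB34 was 26 bp wide. At RAB26 the K562 interval of 200 bp and the 3 HepG2 intervals did not share bases.

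Summed over 99 regulators and effectors of Rabs, the shares with a high-confidence peak lay between those of the RAB genes and the background. In this list, 58 were positive in K562 (58.6%, 48.7 to 67.8) and 48 in HepG2 (48.5%, 38.9 to 58.2), and 34 in both (34.3%). Of the prenylation and extraction genes 4 of 5 were positive in K562 and all 5 in HepG2, with RABGGTB, the catalytic subunit of the Rab geranylgeranyl transferase, at lower confidence in K562.

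Of the 30 GAPs, 20 were positive in K562 (66.7%) and 18 in HepG2 (60.0%), and TBC1D20, TBC1D17 and RABGAP1 were among those in both. Of the 32 GEFs, 19 (59.4%) and 15 (46.9%) were positive, and of the subunits of the RAB7 exchange factor MON1A and MON1B were positive in both lines and CCZ1 had no interval. Of 32 effectors, 15 (46.9%) and 10 (31.2%) were positive, and of the RAB5 effectors EEA1, the early endosome tether, was positive in both lines, RBSN and APPL1 in K562 with a lower-confidence interval in HepG2, and RABEP1 at lower confidence in both. The share of effectors in HepG2 was near the background of 32.0%.

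Another family of small GTPases serves as a comparison. The 25 genes of the ARF, ARL and SAR1 proteins, which act in coat formation and organelle traffic, had a K562 peak at 14 (56.0%, 37.1 to 73.3) and a HepG2 peak at 9 (36.0%, 20.2 to 55.5). The intervals of the RAB genes, 53.0 to 77.1 and 45.9 to 70.8, overlap with those of the ARF group in both lines. No test of these differences was made.

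**Figure D5:**
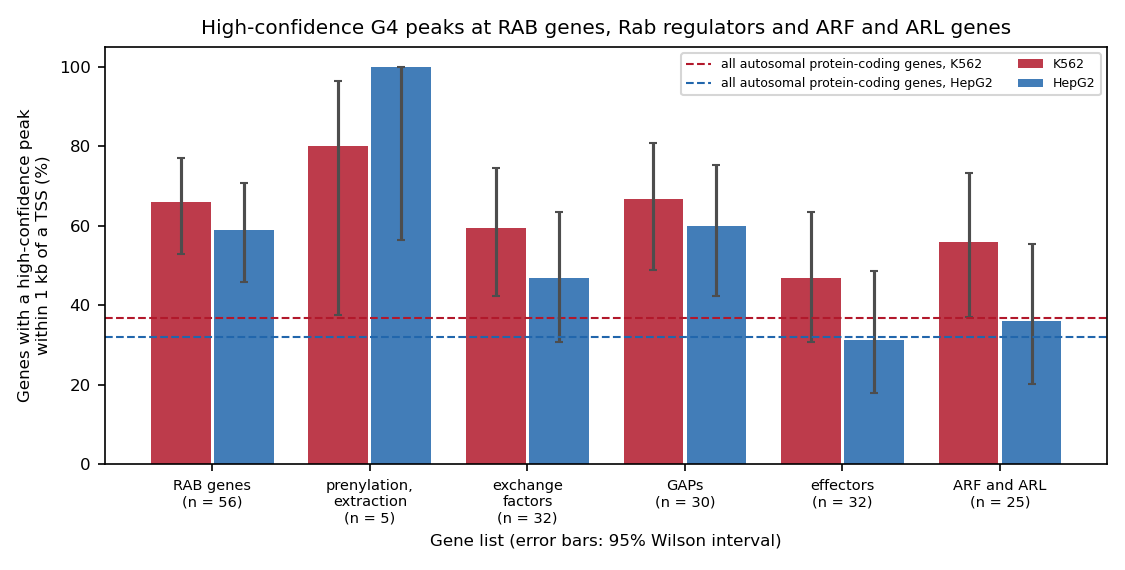
Percentage of genes with a high-confidence peak within 1 kb of a TSS in K562 (red) and HepG2 (blue) for the RAB genes, 4 groups of Rab regulators and effectors, and the ARF and ARL genes; error bars are 95% Wilson intervals and dashed lines the shares over all autosomal protein-coding genes. RAB genes reach 66.1% and 58.9%, and the effectors lie close to the dashed line in HepG2.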

How the data were processed

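G4 ChIP-seq with the BG4 antibody was analysed from 4 deposited interval lists. Per the study's methods, the authors used cutadapt 1.16 for trimming, BWA 0.7.15 for alignment to hg19, Picard 2.14.0 with samtools 1.6 for removal of duplicates, MACS2 2.1.1 with a q-value limit for the peaks of each replicate, and bedtools 2.26.0 multiinter to merge replicates. The lists count 8 K562 and 9 HepG2 replicates, more than the 3 ChIP libraries per line in the labels, and the authors also considered earlier K562 data. The deposited files hold chromosome, start and end only, so read depth, peak height and replicate spread are unknown here. The merging keeps the stretch that replicates have in common, so a listed width can be far below that of a peak call.

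From these lists, overlaps with 1 kb either side of every TSS of GENCODE 44 lifted to GRCh37 were scored in Python 3.11.15 with numpy 2.4.6 and scipy 1.17.1, for the RAB genes and for all autosomal protein-coding genes, and features were counted in the hg19 sequence. All 65554 intervals, from 4 lists, ended within the chromosomes of that reference. Wilson 95% intervals and sign-test intervals of medians cover counting error only. The overlap and motif searches were tested on simulated data. Figures were drawn with matplotlib 3.10.9.

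The members, role groups and gene lists were chosen with earlier results of these data known. Genes named singly are those positive in 1 line with no interval in the other, with 2 or more peaks, with the 2 widest peaks per line, with the most motifs (3 genes), with no interval, in paralog groups with unlike calls, or with peaks nearer another gene. Further genes were named after their values were seen: those with lower-confidence intervals, the examples of motif strand, and the regulators. Of 33 effector symbols, 32 were distinct genes of the annotation, and the remaining one was an older symbol of RBSN. A further gene family in the planned lists is not reported here. Alternatives were other windows, TSS sets, overlap rules, width minimums and motif definitions.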

Additional observations from a re-analysis of the deposited data

How the results depend on the processing

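The counts of RAB genes with high-confidence peaks in K562, HepG2, both or either stayed within 1.5 times their value under every alternative window, TSS set, overlap rule and width minimum. The counts positive in 1 line fell from 9 to 5 for K562 and from 5 to 3 for HepG2 when absence was judged on the lower-confidence list. Among CpG-island-like promoters, an alternative chosen after seeing the data that leaves fewer genes, 2 RAB genes had no interval. The share of peaks with a motif rose to 53.2% in K562 with loops of up to 12 bases, to 93.6% in K562 and 85.4% in HepG2 with runs of at least 2 G, and to 43.9% in HepG2 with 50 bp added on each side, where all promoter peaks reached 35.6%. With the same extension the K562 share was 38.3%, beside 46.0% of all promoter peaks. With 1 TSS per gene, the median position was -97 bp in K562 and -121 bp in HepG2. Every alternative window, TSS set, overlap rule and width minimum narrowed the main rule, so calls could be lost but not gained. No wider window or looser rule was scored. Stretches of at least 100 bp lost RAB7A, RAB28 and RAB35 in K562 and RAB2A, RAB3C, RAB18 and RAB42 in HepG2, and 1 TSS per gene lost RAB3D in HepG2. Requiring the nearest TSS to be the gene's own lost 3 calls in K562 and 5 in HepG2. No paired analysis was possible because replicates were merged before deposition and no result comes from a test, and leaving out replicates was not run for the same reason.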

Other observations

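Of the 6 X-linked RAB genes, which stand outside the autosomal set, RAB9A, a late endosome to Golgi recycling Rab, had a K562 high-confidence peak of 86 bp centred at -39 bp and no HepG2 interval. RAB9B, RAB33A, RAB39B, RAB40A and RAB41 had no interval within 1 kb of a TSS.

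Inside RAB gene bodies but beyond 1 kb of any TSS, high-confidence peaks were few. K562 had 1, of 176 bp, centred at -3218 bp from the nearest TSS of RAB40C. HepG2 had 2, each of 116 bp, at RAB11A and at RAB15, where the centre lay 2234 bp downstream of a TSS. The lower-confidence lists held 13 intervals in 8 genes in K562, of which 6 were in RAB36, and 24 intervals in 13 genes in HepG2, and these include intervals at the places of the 3 high-confidence peaks.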
